A study of Mus musculus with 21 samples.

Results

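Calcium release and store-operated calcium entry genes were read in *Ebf1*-deficient lymphoid progenitors (LPs) in which *Lmo2*, *Zbtb1*, *Cbfa2t2* or *Cbfa2t3* had been targeted by sgRNAs. The set was 7 of the 55421 genes in the QuantSeq table, *Itpr1*, *Itpr2*, *Itpr3*, *Stim1*, *Stim2*, *Orai1* and *Orai2*, taken by symbol. The set was selected with the low *Itpr2* level under sgZbtb1 already known, so the values of these genes in that comparison are given as a description without a test. From the ChIP-seq peak lists, every peak with a member as its nearest gene was taken, which gave 5 of 5898 Zbtb1 peaks and 5 of 6077 Cbfa2t3 peaks.

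The cells were a C57BL6/J lymphoid progenitor line that lacks *Ebf1*, a transcription factor needed for the B lineage, and they grew on OP9 stromal cells with SCF, IL-7 and Flt3L. Cas9-GFP and then a pool of 2 sgRNAs per gene with an hNGFR marker were brought in by retrovirus, and GFP+hNGFR+ cells were sorted 5 days later without Notch stimulation. The groups were sgControl (luciferase), sgLmo2, sgZbtb1, sgCbfa2t2 and sgCbfa2t3, with 3 libraries each. All of them, sgControl included, shared the *Ebf1* deficiency, Cas9 and both infections, and each library came from a pool of infected and sorted cells of 1 cultured line. ChIP-seq was done in the same type of cells without sgRNAs, with 2 replicates per factor, and only the peaks found in both replicates were listed.

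Inositol trisphosphate (IP3), made by phospholipase C after receptor signalling, opens IP3 receptors in the membrane of the endoplasmic reticulum and lets calcium out into the cytosol. The emptied store is sensed by STIM proteins, which open ORAI channels in the plasma membrane, and calcium entering through them activates calcineurin and NFAT factors. In lymphocytes this route carries antigen receptor signals. The 3 IP3 receptors, encoded by *Itpr1*, *Itpr2* and *Itpr3*, form channels of 4 subunits and can mix with each other.

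The libraries held 1705416 to 2095447 reads. The deposited values, which the study calls TPM, are shares of the reads of a library, scaled to the same total in each, since QuantSeq reads each mRNA near its 3′ end and the values were not divided by length. All 7 members passed the filter of a mean above 1 TPM, with means of 16.7 (*Orai2*) to 80.6 TPM (*Stim1*) over the 15 libraries. The mRNA of the targeted gene was 61.7 ± 5.51 TPM in sgControl and 105.6 ± 9.91 TPM (SD, n = 3) in the libraries labelled sgZbtb1 for *Zbtb1*, and 190.2 ± 18.7 and 349.8 ± 12.9 TPM (SD, n = 3) in sgControl and the libraries labelled sgCbfa2t3 for *Cbfa2t3*. Both were higher under their own sgRNAs (limma adjusted p = 0.00102 and 1.67e-07). *Cbfa2t2* was at 11.8 ± 0.698 and 21.9 ± 4.85 TPM and *Lmo2* at 18.4 ± 4.17 and 16.3 ± 7.99 TPM (SD, n = 3) in sgControl and under their own sgRNAs, which did not pass (limma adjusted p = 0.412 and 0.956). No targeted mRNA passed as lower, and reads at the 3′ end do not show an edit elsewhere in the gene, so these values do not check the disruption. By immunoblotting, the study reported losses of the Lmo2, Zbtb1 and Cbfa2t3 proteins under their sgRNAs. It lists no blot of Cbfa2t2, and the blots were not analysed here. Names such as sgZbtb1 stand below for the libraries so labelled. Summed over 10 markers of lymphoid progenitors, levels were 1052 to 1224 TPM in sgControl and 945.7 to 1028 TPM in the libraries labelled sgZbtb1, where *Kit* and *Ptprc* passed the test as lower. Of these markers, *Cd79a* was at 0 in all libraries. Markers of OP9 stroma, again 10, summed to 1.96 to 13.7 TPM in every library, with *Col3a1*, *Dcn*, *Lum* and *Postn* at 0 throughout. Markers of mature T cells summed to 13.4 to 21.7 TPM in sgControl and 6.38 to 12.3 TPM in the libraries labelled sgZbtb1, with *Cd8a* at 0 in all libraries and none called. Erythroid markers summed to 114.3 to 148.1 TPM in sgControl and 183.9 to 277.2 TPM in the libraries labelled sgCbfa2t3, where *Hbb-bt* passed as higher, and *Hba-a1*, *Hbb-bs* and *Alas2* were at 0 in all libraries. The erythroid sums were lower in sgLmo2, at 71.2 to 113.1 TPM, and higher in sgCbfa2t2, at 152.7 to 182 TPM, with none called. Myeloid markers summed to 284.6 to 318.9 TPM in sgControl and 272.0 to 371.8 TPM in the edited libraries. Most of this was *Fcer1g*, with a mean of 277.8 TPM over the 15 libraries, and *Elane* and *Csf3r* were at 0 in all libraries. Mitochondrially encoded transcripts summed to 17910 to 19770 TPM in sgControl and 13770 to 15730 TPM in the libraries labelled sgZbtb1, where 4 of the 5 tested passed as lower, the other 3 listed ones being at 0 in all libraries. These sums were below sgControl elsewhere too, with none called, at 16940 to 17420 TPM in sgLmo2, 15900 to 17850 in sgCbfa2t2 and 15430 to 17540 in sgCbfa2t3. The part of these shifts in the results on the calcium genes was not tested. In bulk RNA, fewer cells that express a gene and less RNA per cell cannot be told apart.

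Of the 7 genes, *Itpr2* drew 3 Zbtb1 peaks as nearest gene, more than the others, and no member drew more than 1 Cbfa2t3 peak. *Itpr2* (ENSMUSG00000030287) spans 393.9 kb on the minus strand, chr6:146108299-146502223 in GRCm38 (mm10), and of its Zbtb1 peaks the highest lies in intron 2 of 56 and the other two lie upstream of the start. The windows below hold the 200 central bases of 4 peaks at *Itpr2*, shown because the level of this gene varied most, and of those at *Itpr3* and at a site in *Itpr1* for contrast. They are read from the plus strand of GRCm38, 5′ to 3′. Capitals mark TGTGGT, the core letters bound by Runx factors, and TGGTGGT, which the study reads as a ZBTB family motif, on either strand, so that a match on the minus strand shows its reverse complement. TGTGGT and TGGTGGT can overlap.

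Zbtb1 peak in intron 2 of *Itpr2*, chr6:146452500-146452699: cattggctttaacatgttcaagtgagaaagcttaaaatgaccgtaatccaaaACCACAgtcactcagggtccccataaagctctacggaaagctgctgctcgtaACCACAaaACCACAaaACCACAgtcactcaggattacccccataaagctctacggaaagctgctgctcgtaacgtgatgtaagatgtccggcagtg
Zbtb1 peak upstream of *Itpr2*, chr6:146522034-146522233: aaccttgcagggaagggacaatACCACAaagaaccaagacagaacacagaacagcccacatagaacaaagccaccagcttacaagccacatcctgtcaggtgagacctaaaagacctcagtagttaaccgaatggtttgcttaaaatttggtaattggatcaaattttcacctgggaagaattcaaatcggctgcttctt
Cbfa2t3 peak in intron 34 of *Itpr2*, chr6:146306076-146306275: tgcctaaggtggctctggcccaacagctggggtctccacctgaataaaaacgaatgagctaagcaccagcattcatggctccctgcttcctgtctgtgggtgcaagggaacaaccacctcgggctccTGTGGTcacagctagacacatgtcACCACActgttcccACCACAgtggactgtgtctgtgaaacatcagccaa
Zbtb1 peak shared with Cbfa2t3 in an intron of *Itpr2*, chr6:146171007-146171206: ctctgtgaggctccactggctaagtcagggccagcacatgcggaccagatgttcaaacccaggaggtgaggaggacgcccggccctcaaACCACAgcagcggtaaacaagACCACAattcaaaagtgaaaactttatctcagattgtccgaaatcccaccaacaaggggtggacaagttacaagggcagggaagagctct
Zbtb1 peak upstream of *Itpr3*, chr17:27051844-27052043: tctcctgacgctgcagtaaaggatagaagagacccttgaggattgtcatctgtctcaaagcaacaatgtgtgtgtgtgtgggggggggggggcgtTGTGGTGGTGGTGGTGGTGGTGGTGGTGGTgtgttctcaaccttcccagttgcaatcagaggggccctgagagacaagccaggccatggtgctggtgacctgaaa
Cbfa2t3 peak in intron 1 of *Itpr3*, chr17:27064332-27064531: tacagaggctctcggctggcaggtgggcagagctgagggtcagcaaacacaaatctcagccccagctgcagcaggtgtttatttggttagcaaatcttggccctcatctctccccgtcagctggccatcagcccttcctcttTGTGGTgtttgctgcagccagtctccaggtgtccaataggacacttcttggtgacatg
Zbtb1 peak shared with Cbfa2t3 in an intron of *Itpr1*, chr6:108536990-108537189: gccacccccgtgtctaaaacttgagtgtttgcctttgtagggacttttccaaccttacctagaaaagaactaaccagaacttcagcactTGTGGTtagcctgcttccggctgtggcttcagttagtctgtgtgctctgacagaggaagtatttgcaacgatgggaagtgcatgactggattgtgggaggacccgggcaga

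The intron 2 peak of *Itpr2* had a score of 57.8 and lay 49.6 kb downstream of the start. Scores are normalized tag counts at the peak as the authors' peak caller gave them, and 20.1% of the Zbtb1 peaks scored higher. Its window held 4 matches to TGTGGT, a number reached by 2.55% of the Zbtb1 windows, whereas at least 1 match was held by 41.3%. The matches began at bases 53, 105, 113 and 121 of the window. A stretch of 36 bases also stood in it 2 times, from its bases 71 and 142, with no match wholly inside either copy. The peak 19.9 kb upstream scored 38.1 and held 1 match. The remaining upstream peak scored 29.7. Matches are thus given for 2 of the 3 peaks, which say nothing of the third.

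The Zbtb1 peak 5.4 kb upstream of *Itpr3* had a score of 15.2, near the lower limit of 15 in that list, and 98.2% of the peaks scored higher. It held 8 overlapping matches to TGGTGGT in a (TGG)n repeat, as 5.99% of the Zbtb1 windows did. The Zbtb1 peak at *Orai1* lay in its intron, 10.5 kb from the start, with a score of 22.5 and 1 match to TGTGGT.

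The 5 Cbfa2t3 peaks lay 6 kb upstream of *Itpr1* (score 25.9), 196 kb into *Itpr2* (24.0), 7.1 kb into *Itpr3* (36.1), in the coding part of exon 2 of *Orai1* (30.6) and 7.1 kb upstream of *Stim1* (30.3). Of the protein-coding starts near the *Stim1* peak, that of *Rhog* was nearer, at 4.7 kb. All 5 windows held TGTGGT and all 5 held CAGNTG, an E-box form bound by bHLH factors, on either strand. Over the whole list 43.7% of the Cbfa2t3 windows held the first and 83.2% the second. *Stim2* and *Orai2* were the nearest gene of no peak in either list. None of the 10 peaks overlapped a peak of the other factor, but the share that overlaps over the whole lists was not computed. The nearest peak of the other factor was 3.6 kb away at *Orai1*, 10.4 kb at *Stim1*, where the Zbtb1 peak is given to another gene, and 12.5 kb at *Itpr3*.

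Shared sites were found inside the long introns of *Itpr1* and *Itpr2* all the same, at peaks that the lists give to other genes. In *Itpr2*, 331.1 kb from the start, a Zbtb1 peak (score 21.4) and a Cbfa2t3 peak (32.9) overlapped by 293 bp, and the lists name *Sspn* as nearest. In *Itpr1*, 324 kb from the start, peaks with scores of 19.7 and 30.0 overlapped by 317 bp, and *Mir7661* is named. At the 3′ end of *Orai2* peaks of 75.0 (Zbtb1) and 237.3 (Cbfa2t3) overlapped by 241 bp, and *Alkbh4* is named. The latter was the highest Cbfa2t3 score at any of the 7 genes, with 1.28% of the list above it. A further 2 Zbtb1 peaks (24.6 and 40.5) and 1 Cbfa2t3 peak (22.4) lay in the distal part of *Itpr2*, and 2 Cbfa2t3 peaks (29.5 and 30.1) in *Itpr1*. Of these 6 Cbfa2t3 windows inside the spans, 3 held TGTGGT and 4 held CAGNTG, beside 5 of 5 for each at the peaks assigned to members.

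**Figure D1:**
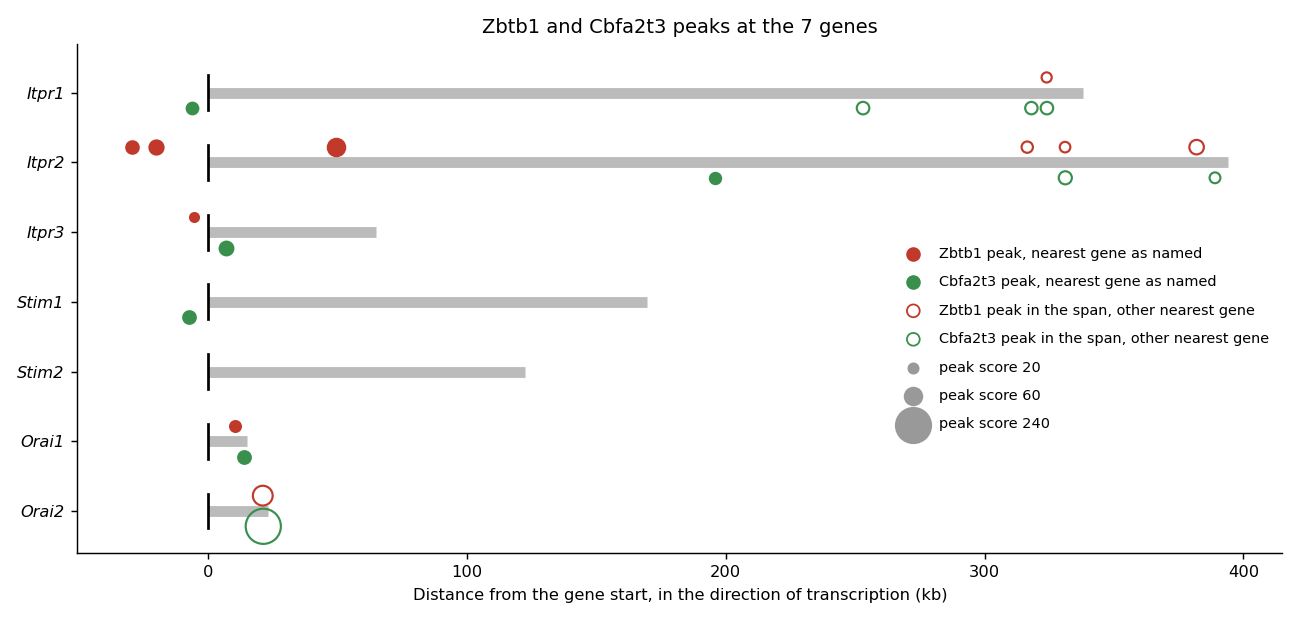
Peaks at the 7 genes. The x axis is the distance in kb from the gene start in the direction of transcription, grey bars are gene spans, circles above the bar are Zbtb1 peaks and those below it Cbfa2t3 peaks, filled where the list names the gene as nearest, with the area in proportion to the peak score. *Itpr2* has 3 filled Zbtb1 circles, and *Itpr1*, *Itpr2* and *Orai2* each hold a site where open circles of both factors coincide.

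A peak was assigned to 3 of the 7 members in the Zbtb1 list and to 5 of the 7 in the Cbfa2t3 list. Over all 11554 tested genes the shares were 27.1% and 20.7%, and over the 1157 that span over 100 kb, as 4 of the 7 members do, 43.1% and 37.5%. At least 3 Zbtb1 peaks, as at *Itpr2*, were assigned to 1.59% of tested genes and to 6.31% of those that span over 100 kb. No test was made, since peaks near long genes are not independent of gene length.

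*Itpr2* mRNA was lowest in the libraries labelled sgZbtb1. The 3 values were 4.47, 5.26 and 4.91 TPM, and those of sgControl 19.7, 40.5 and 41.0 TPM. These were 8, 11 and 10 reads against 34, 70 and 70, all above the floor of 3 reads per library, a limit that covers counting error only. Every library labelled sgZbtb1 was below every sgControl library, although sgControl replicate 1 was at about the level of other edited libraries. The means were 33.8 ± 12.1 TPM in sgControl and 4.88 ± 0.396 TPM (SD, n = 3) under sgZbtb1, which is 14.4% of sgControl. The log2 difference on log2(TPM + 1) was -2.50 with a limma standard error of 0.28, which ranked 7 from the lowest of the 11554 genes. This contrast was used to choose the genes, so no p-value is given.

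In the other conditions *Itpr2* was at 30.0, 37.6 and 44.9 TPM in sgLmo2, 30.9, 24.3 and 20.3 TPM in sgCbfa2t2, and 20.9, 29.7 and 16.6 TPM in sgCbfa2t3. Each of these ranges overlapped that of sgControl. The order of means was sgLmo2, sgControl, sgCbfa2t2, sgCbfa2t3 and sgZbtb1, and only the last step in it had no overlap between neighbours. The libraries labelled sgZbtb1 were below all 12 others, as were those of 1.9% of the tested genes. The log2 difference from sgControl was 0.20 (standard error 0.28, limma adjusted p = 0.966) in sgLmo2, -0.36 (0.28, limma adjusted p = 0.744) in sgCbfa2t2 and -0.54 (0.28, limma adjusted p = 0.506) in sgCbfa2t3. These did not pass the test, and the comparisons share the sgControl libraries. Without sgControl replicate 1, the lowest of the 3, the difference was -0.87 in sgCbfa2t3, -0.70 in sgCbfa2t2 and -0.14 in sgLmo2.

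*Itpr1* was at 42.4, 52.1 and 51.6 TPM in sgControl and at 33.5, 36.8 and 27.99 TPM under sgZbtb1. The groups did not overlap, with 67.3% of the sgControl mean left and a log2 difference of -0.56 (standard error 0.21). In sgLmo2 it was at 20.9, 37.6 and 40.0 TPM, again below all sgControl libraries, with a log2 difference of -0.60 (standard error 0.21, limma adjusted p = 0.765). Without sgLmo2 replicate 1, the lowest library, it was -0.31. In sgCbfa2t2 and sgCbfa2t3 it was at 36.7 to 44.7 and 34.3 to 44.0 TPM, overlapping sgControl. Means in all 4 edited conditions were below that of sgControl, and none of the 3 tested differences passed.

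*Itpr3* had the narrowest range of condition means among the receptors, and was at 16.8 to 22.6 TPM in sgControl and 17.2 to 18.4 TPM in the libraries labelled sgZbtb1. Its highest library was sgCbfa2t3 replicate 2 at 31.4 TPM. Log2 differences were 0.31 in sgLmo2 and 0.33 in sgCbfa2t3 (both with a standard error of 0.26, limma adjusted p = 0.938 and 0.713), 0.00 in sgCbfa2t2 and -0.18 in sgZbtb1, and ranges overlapped sgControl in all 4 conditions.

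Added over the 3 receptor genes, levels were 102.6 ± 15.6 TPM in sgControl and 55.3 ± 4.71 TPM (SD, n = 3) in the libraries labelled sgZbtb1. The sums ranged from 50.1 to 59.3 TPM there and from 74.6 to 113.8 TPM in the other 12 libraries. *Itpr2* took 32.1% ± 7.68 of the receptor reads in sgControl and 8.87% ± 0.942 (SD, n = 3) in the libraries labelled sgZbtb1. The share of *Itpr1* was 47.7% ± 2.32 and 59.1% ± 3.12, and that of *Itpr3* 20.2% ± 5.86 and 32.0% ± 2.70 (SD, n = 3). Shares of a sum depend on each other, and neither gene had a higher mean under sgZbtb1. Means in sgControl and sgZbtb1 were 48.7 and 32.8 TPM for *Itpr1*, and 20.2 and 17.6 TPM for *Itpr3*, the latter with overlapping ranges. In sgLmo2 the share of *Itpr1* was 33.7% ± 5.04 and that of *Itpr2* 39.3% ± 3.47 (SD, n = 3). Reads near the 3′ end can be captured unequally between genes, so the shares compare conditions rather than receptors.

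**Figure D2:**
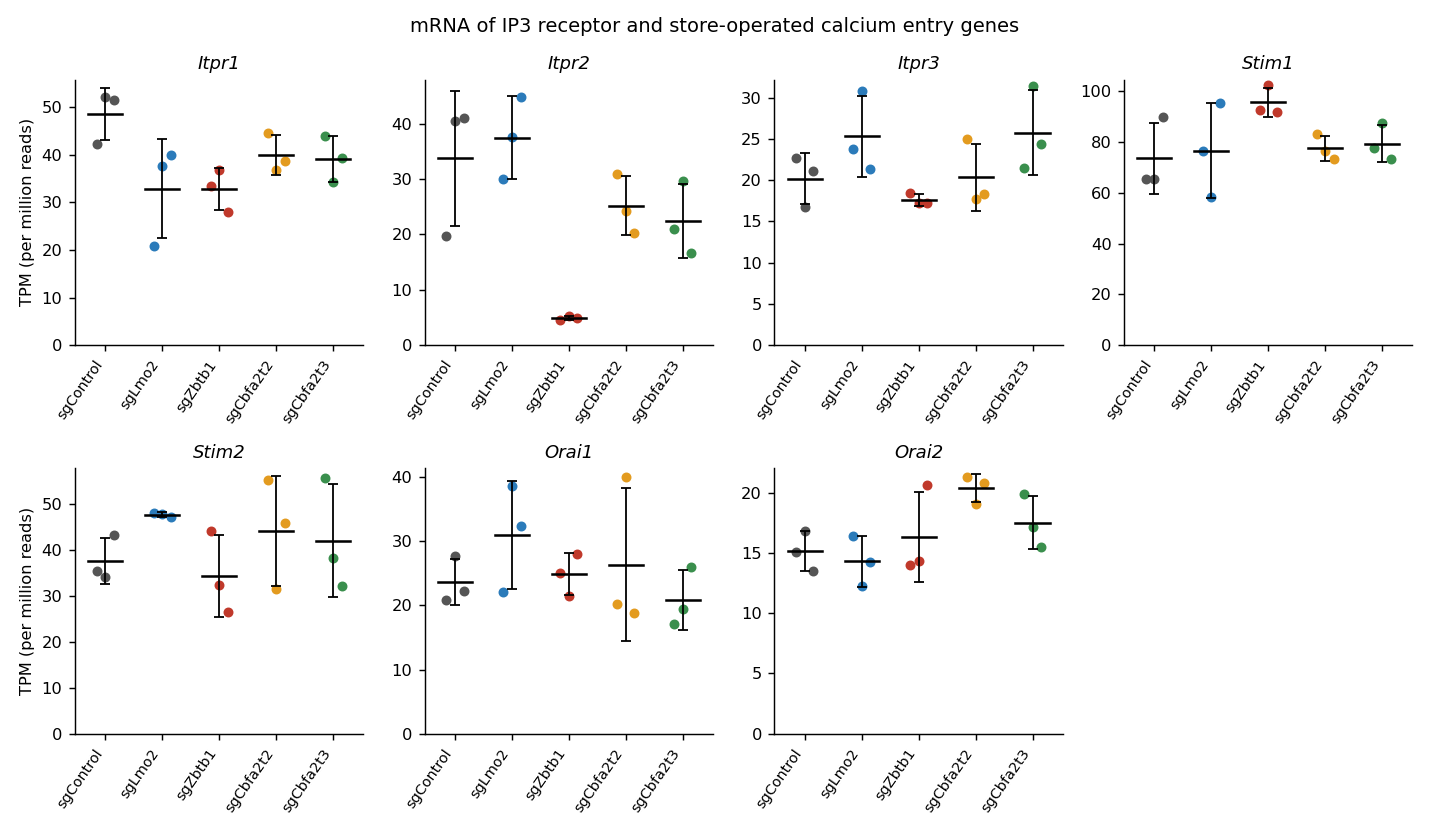
Levels of the 7 genes in TPM (linear axes from 0) for the 5 conditions. Points are libraries, horizontal bars means and error bars SD (n = 3). The 3 libraries labelled sgZbtb1 lie at 4.47 to 5.26 TPM for *Itpr2*, below the 12 others, and the same libraries lie above sgControl for *Stim1*.

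*Stim1*, the main store calcium sensor, was higher instead. Libraries of sgControl held 65.6, 65.4 and 89.7 TPM and those of sgZbtb1 92.7, 102.3 and 91.8 TPM, without overlap. The ratio of means was 1.30 and the log2 difference 0.39 (standard error 0.15). The gap was small, since sgControl replicate 3, at 89.7 TPM, came close to the lowest of them, and sgLmo2 replicate 3, at 95.3 TPM, was within their range. In sgLmo2, sgCbfa2t2 and sgCbfa2t3 the log2 differences were 0.05, 0.09 and 0.12 (standard error 0.15 each, limma adjusted p = 0.990, 0.912 and 0.844).

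*Stim2*, a sensor that responds to smaller losses of store calcium, was at 48.1, 47.9 and 47.1 TPM in sgLmo2 and at 35.4, 34.1 and 43.4 TPM in sgControl. The sgLmo2 libraries were all higher, but the log2 difference of 0.34 (standard error 0.21, limma adjusted p = 0.908) did not pass the test. Under sgZbtb1 its values of 44.1, 32.5 and 26.5 TPM were spread around the sgControl values. The sgCbfa2t2 and sgCbfa2t3 libraries ranged from 31.5 to 55.8 TPM.

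*Orai1*, the pore-forming channel, was at 20.9 to 27.8 TPM in sgControl and 21.5 to 27.99 TPM in the libraries labelled sgZbtb1, a log2 difference of 0.07 (standard error 0.26). Single libraries of sgCbfa2t2 (40.1 TPM) and sgLmo2 (38.6 TPM) were the highest, and all ranges overlapped sgControl. *Orai2*, which can join *Orai1* in channels, was the weakest member. It was at 15.1, 16.8 and 13.5 TPM in sgControl and at 21.3, 19.1 and 20.8 TPM in sgCbfa2t2, higher in all 3 libraries with a log2 difference of 0.41 (standard error 0.29, limma adjusted p = 0.707). Under sgZbtb1 its values were 13.97, 14.3 and 20.6 TPM, with 2 of the 3 inside the sgControl range, and the log2 difference was 0.09 (standard error 0.29).

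**Figure D3:**
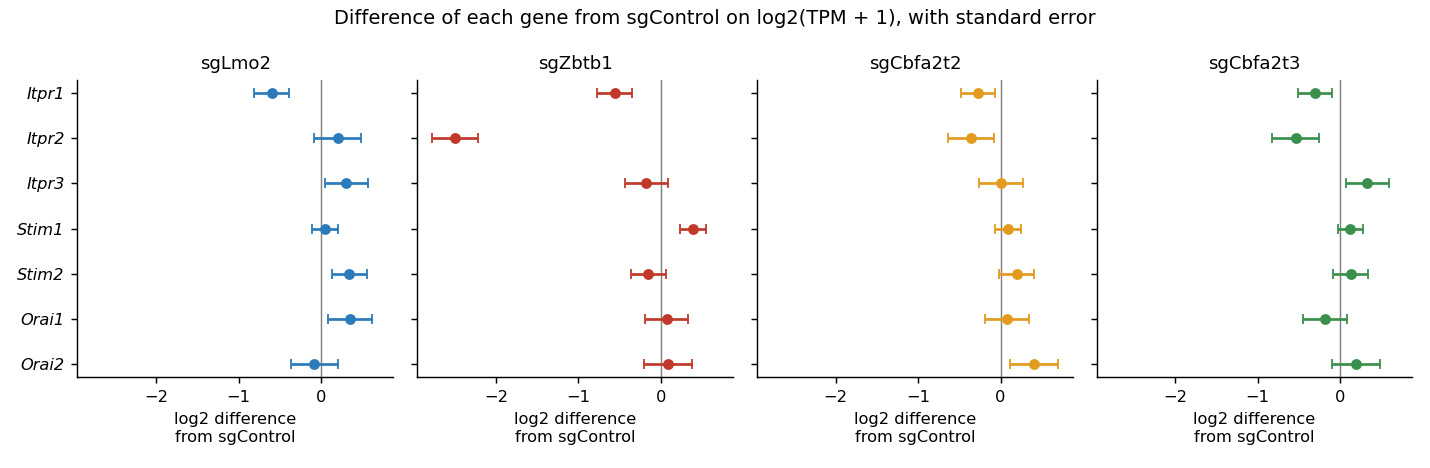
Log2 difference of each gene from sgControl on log2(TPM + 1), 1 panel per condition. Points are differences of the means of 3 libraries and bars the limma standard error. *Itpr2* in sgZbtb1, at -2.50, lies far from the rest, which all lie between -0.60 and 0.41.

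Counted over the set, 0 of 7 members passed limma's test at an adjusted p of 0.05 in sgLmo2, sgCbfa2t2 and sgCbfa2t3, where 0.0173%, 0.147% and 0.537% of all tested genes did. At an unadjusted p of 0.05 the counts were 1 (*Itpr1*), 0 and 0, beside 5.65%, 9.56% and 10.6% of all tested genes. edgeR on the recovered reads called 0 in each. DESeq2 called 0 of 7 in sgLmo2, but gave an adjusted p to 0 members in sgCbfa2t2 and to 1 (*Stim1*) in sgCbfa2t3, so that it tested the set in sgLmo2 alone. The groups did not overlap for 2 members in sgLmo2, 1 in sgCbfa2t2 and 0 in sgCbfa2t3, against 10.6%, 13.7% and 15.8% of all tested genes. In sgZbtb1 they did not overlap for 3 members (*Itpr1*, *Itpr2* and *Stim1*), beside 22.9% of all tested genes. Median log2 differences of the set were 0.20, -0.15, 0.08 and 0.12 in sgLmo2, sgZbtb1, sgCbfa2t2 and sgCbfa2t3, and those of all tested genes 0.01, -0.03, 0.00 and -0.01.

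The genes most like *Itpr2* over the 15 libraries, by Pearson's r on log2(TPM + 1) among genes with a mean above 10 TPM, were *Mgst2* (r = 0.956), *Sox6* (0.943), *Ctsw* (0.943), *Jchain* (0.942) and *Tcrg-C4* (0.935). These r describe 15 libraries that fall into 5 conditions and are not tested. *Sox6*, a transcription factor, was at 43.4 to 56.9 TPM in sgControl and 14.7 to 17.2 TPM in the libraries labelled sgZbtb1. *Ctsw*, the protease cathepsin W, was at 33.4 to 35.4 and 4.47 to 7.17 TPM. *Jchain*, the joining chain of secreted immunoglobulins, was at 853.1 to 1195 and 216.8 to 318.0 TPM. *Mgst2*, a microsomal glutathione transferase, and *Tcrg-C4*, a constant segment of the T cell receptor gamma locus, kept more, with means of 260.5 and 143.8 TPM and of 372.2 and 219.8 TPM. All 5 had their second lowest mean in sgCbfa2t3, as *Itpr2* did. Since they were chosen by r to *Itpr2* over these same libraries, a like order of conditions follows largely from the choice.

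**Figure D4:**
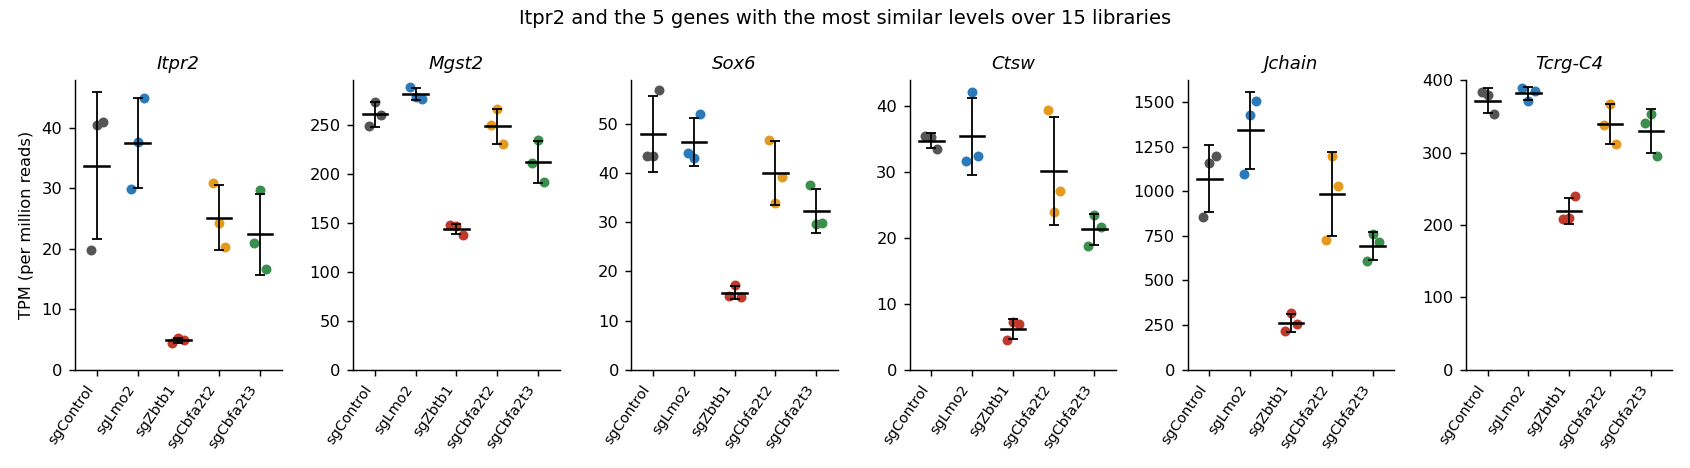
*Itpr2* and the 5 genes with the highest Pearson's r to it, in TPM (linear axes from 0) for the 5 conditions. Points are libraries, horizontal bars means and error bars SD (n = 3). In each panel the libraries labelled sgZbtb1 are the lowest, for *Ctsw* at 4.47 to 7.17 TPM, which follows largely from the choice by r.

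For the other members the highest r was lower, 0.805 for *Itpr1* (*Spopl*), 0.805 for *Itpr3* (*Sp110*), 0.810 for *Stim1* (*Utp6*), 0.845 for *Stim2* (*Bace1*), 0.793 for *Orai1* (*Add1*) and 0.759 for *Orai2* (*Qdpr*). Each of these is the highest r among all genes with a mean above 10 TPM over only 15 libraries, and none was tested. Among the members themselves r ranged from -0.463 (*Itpr2* and *Stim1*) to 0.476 (*Itpr2* and *Itpr3*).

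The rest of the pathway was read from a list of 102 other calcium genes, of which 83 were tested. In sgZbtb1 2 rose and 3 fell, 6.02% of the list beside 4.79% of all tested genes. In sgLmo2, sgCbfa2t2 and sgCbfa2t3 limma called 0, with 6, 6 and 11 at an unadjusted p of 0.05, which is 7.23%, 7.23% and 13.3% of the list beside 5.65%, 9.56% and 10.6% of all tested genes. edgeR called 0 in each of these, and DESeq2 0, 0 and 1 of the 83, 27 and 37 to which it gave an adjusted p. The median log2 difference of the list was 0.03, -0.01, -0.01 and -0.04 in sgLmo2, sgZbtb1, sgCbfa2t2 and sgCbfa2t3.

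*Calu*, encoding the calcium-binding store protein calumenin, fell most under sgZbtb1. Its values were 63.3, 63.1 and 58.0 TPM in sgControl against 22.3, 19.1 and 13.3 TPM under sgZbtb1, a log2 difference of -1.73 (standard error 0.20, limma adjusted p = 9.25e-10). The other 7 tested genes for calcium binding in the store did not pass. Of the 9 tested pumps and exchangers, *Atp2a1* fell and *Atp2b4* rose. *Atp2a1*, a calcium pump of the store, had 13.9, 6.37 and 6.45 TPM in sgControl and 3.91, 2.87 and 0.491 TPM under sgZbtb1 (log2 difference -1.62, standard error 0.47, limma adjusted p = 0.0288), and the last value is a single read, under the floor. *Atp2b4*, a pump of the plasma membrane, was at 127.8, 71.8 and 100.3 TPM and at 173.2, 139.6 and 145.8 TPM (log2 difference 0.64, standard error 0.15, limma adjusted p = 0.00505).

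*Camk2d*, a calmodulin-dependent kinase, fell from 72.3 ± 13.7 to 47.0 ± 8.87 TPM (SD, n = 3; limma adjusted p = 0.0223), and *Vdac2*, a channel of the outer mitochondrial membrane, rose from 237.1 ± 15.6 to 299.4 ± 16.6 TPM (SD, n = 3; limma adjusted p = 0.0317). Of the 5, *Calu* alone passed in every alternative and with each library left out. Of the 5, 2 passed without sgControl replicate 1, sgControl replicate 2, sgZbtb1 replicate 1 or sgZbtb1 replicate 3, each left out alone. *Ahcyl2*, named here after its values were seen, missed the threshold (limma adjusted p = 0.0581) and passed as lower without sgControl replicate 1, under the replicate block and with edgeR. Zbtb1 peaks were assigned to *Calu* (1) and *Atp2b4* (2), and 0 to *Atp2a1*, *Camk2d* and *Vdac2*. A Zbtb1 peak was assigned to 43.4% of the 83 genes, beside 27.1% of all tested genes, without a test and with no account of gene length.

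The genes below, named from the list for their place in the route, did not pass in any of the 4 comparisons. *Plcg2*, a phospholipase C that makes IP3, was at 135.5 ± 14.3 TPM in sgControl and 134.6 ± 5.07 TPM (SD, n = 3) in the libraries labelled sgZbtb1. *Ahcyl1*, which binds IP3 receptors and competes with IP3, was at 131.1 ± 4.96 and 137.4 ± 26.9 TPM. The store pumps *Atp2a2* and *Atp2a3* had log2 differences of 0.28 and -0.12 (standard errors 0.12 and 0.13, limma adjusted p = 0.207 and 0.668) in sgZbtb1. *Ppp3ca*, a catalytic subunit of calcineurin, had -0.04 (limma adjusted p = 0.894) and *Nfatc3* -0.06 (limma adjusted p = 0.837).

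**Figure D5:**
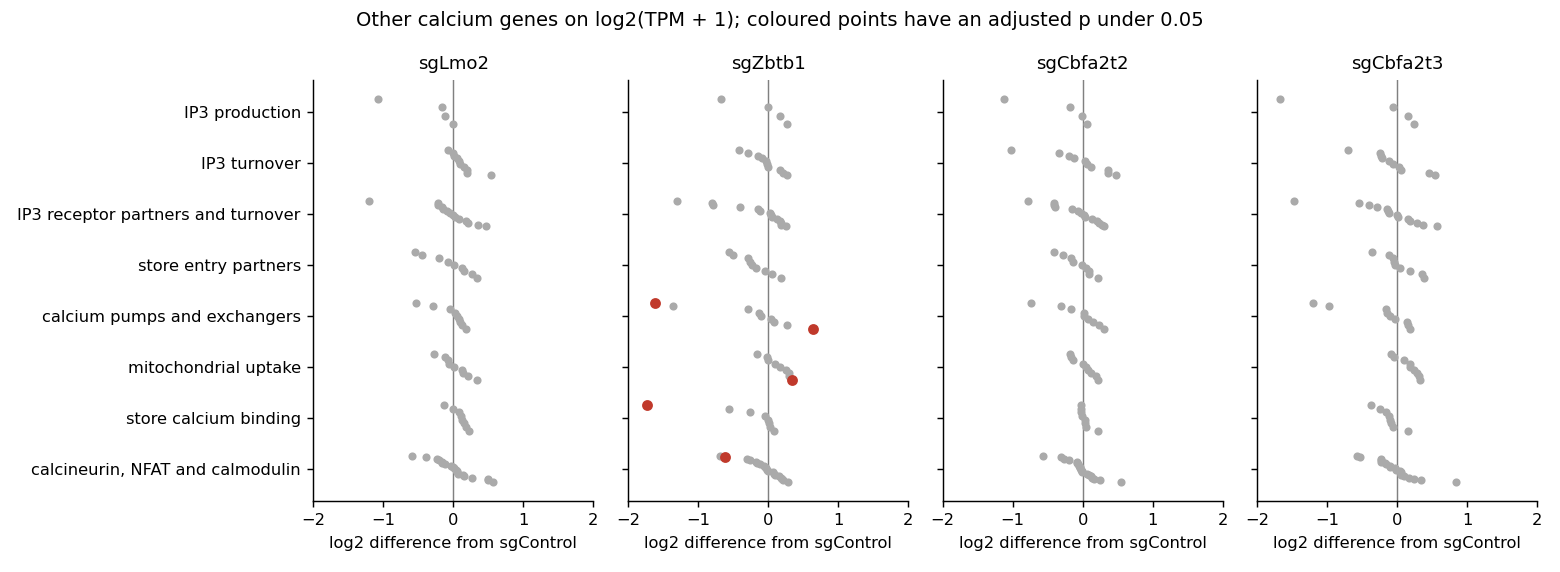
Log2 differences from sgControl on log2(TPM + 1) for the 83 tested genes of the calcium list, grouped by role, 1 panel per condition. Each point is a gene, and coloured points have a limma adjusted p under 0.05. Coloured points appear in sgZbtb1 alone, 3 to the left and 2 to the right of 0.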

How the data were processed

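The QuantSeq table covered 15 libraries and the ChIP-seq lists 2 factors. For QuantSeq, the authors trimmed reads with fastp, mapped them to mm10 with STAR and gave every library an equal total. The deposited unit, TPM in the authors' words, is in effect CPM, because gene length did not enter it, and 100% of values were whole multiples of 1 read (within 0.02 reads). The strand setting of the counting is not given in the sources used here. ChIP-seq reads were mapped by the authors with Bowtie 1.1.1 and peaks called with HOMER against a matched control, and they deposited the peaks of both replicates with a normalized score. The lists hold no read depth per peak. Peak positions were taken as mm10, since the distances to gene starts in the lists match GRCm38 for most member peaks. The 18 columns with the authors' means, SDs, p-values and fold changes were not used.

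Genes with a mean above 1 TPM were tested on log2(TPM + 1) with limma 3.58.1 in R 4.3.3 (eBayes with a trend), all libraries in 1 fit, two-sided, with Benjamini-Hochberg adjustment over 11554 genes. Alternatives used edgeR 4.0.16, DESeq2 1.42.0, a pseudocount of 0.1, other filters, other scaling, a replicate block and each library left out. The study calls the 3 replicates biologically independent. Replicates differed by 2.23 to 3.60 in chi-square per degree of freedom, more than sampling noise. Sequences came from GRCm38 by pysam 0.24.0, with GENCODE vM21 as annotation. limma was tested on simulated data for sgZbtb1 against sgControl, with 200 changed among 11554 genes. It called 95% of the genes changed 2-fold, 100% of those changed 4-fold, and 8 unchanged genes. The changed genes were drawn from those with higher sgControl means, and 1 spread between replicates was set for all genes. These rates thus do not carry over to weaker or more variable genes, or to comparisons with fewer changed genes. The members and lists were chosen with earlier results of these data known. Named were the 7 members, up to 8 calcium genes with an adjusted p under 0.05 per comparison, 7 preset calcium genes, and the 5 genes most like the member that varied most, with 1 for each other member. A calcium gene that this rule names and the window of a peak are not reported here.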

Additional observations from a re-analysis of the deposited data

How the results depend on the processing

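The log2 difference of *Itpr2* in sgZbtb1 kept its direction and moved by less than the spread between replicates under every alternative. It was -2.50 with the replicate block, -2.69 with a pseudocount of 0.1, -2.75 with edgeR and -2.77 with DESeq2, and leaving out each library gave -2.83 to -2.32. In sgLmo2, sgCbfa2t2 and sgCbfa2t3 0 members passed under each alternative, leave-one-out included, but DESeq2 gave an adjusted p to 7, 0 and 1 of the 7 members and so tested the set in sgLmo2 alone. Small differences changed sign when a library was left out, such as *Itpr2* and *Stim1* in sgLmo2, *Orai1* in sgCbfa2t2 and *Stim2* in sgCbfa2t3, none of them called. The count of calcium genes called in sgZbtb1, 5, was 1 with all genes above 0 in the fit, which tests more genes, and 2 to 5 with a library left out. The replicate block and DESeq2 each called 1 calcium gene in sgCbfa2t3, where limma called 0, and the cause was not tested. Libraries of the same replicate number were weakly alike. The r of their deviations was -0.0072 to 0.0656, with a mean of 0.0279, against a mean of -0.0139 for libraries of another number. Of 15 libraries, 14 were closest on average to their own number, and the main fit did not model this. Under the replicate block 7 calcium genes passed in sgZbtb1. With a peak score of at least 30, 2 Zbtb1 and 3 Cbfa2t3 peaks were left, and within 10 kb of the start 1 and 3. The count of member peaks with the Runx core letters, the ZBTB family motif or the E-box form stayed within 1.5 times in whole peaks. *Itpr2* rested on 8 to 82 reads per library, which limits its precision by counting alone, and peak scores carry no depth.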
